A study of Homo sapiens with 1 sample.

Results

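The cluster of miR-191 and miR-425 is a pair of hairpins on chromosome 3 that lie within the gene DALRD3 and give 4 mature miRNAs, hsa-miR-191-5p, hsa-miR-191-3p, hsa-miR-425-5p and hsa-miR-425-3p (written without the prefix hereafter). The members were taken by name from the miRNA spots of 1 Agilent miRNA microarray, and they account for 4 of its 2549 miRNAs, 12 of 5893 probes and 80 of 50980 spots. The array was hybridized with total RNA of DLD-1, an established line of human colorectal carcinoma cells, transfected here with negative control siRNA (si-NC, n = 1 array). In the study, this sample is the control for siRNA against circLONP2, a circular RNA formed by back-splicing of LONP2. The array of that knockdown was not analysed here, so no groups were compared and no p-value was computed, and each error given is technical. Whether the cluster keeps a steady level between samples, as its frequent use as a reference presumes, could not be measured on 1 array.

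Both hairpins sit in an intron of DALRD3, whose protein takes part in the methylation of certain arginine tRNAs, and they are transcribed together with their host. A miRNA hairpin is cut by Drosha in the nucleus and by Dicer in the cytoplasm into a duplex. The strand kept by an Argonaute protein is the guide, and the other, the passenger, is mostly degraded. For miR-191 and miR-425 the guide is the 5p strand in most tissues. miR-191-5p is found in nearly all human tissues and has served as a reference in RT-qPCR of miRNAs.

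In the RefSeq gene table (GRCh38.p14) both hairpins fell inside the span of DALRD3, on the same strand as the gene, with 383 bases between them. No other miRNA gene lay within 10000 bases of the cluster. In the RefSeq sequence table used here, 3 of the 4 members were matched by name, all except miR-425-5p. They are shown, 5′ to 3′, because the seed in capitals (bases 2 to 8) is the part that pairs with target mRNAs and because it tells whether the arms belong to 1 seed family.
miR-191-5p: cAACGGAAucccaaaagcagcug
miR-191-3p: gCUGCGCUuggauuucgucccc
miR-425-3p: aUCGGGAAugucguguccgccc

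miR-191-5p was placed at chr3:49020672-49020694, miR-191-3p at chr3:49020631-49020652 and miR-425-3p at chr3:49020159-49020180, all on the minus strand. These are GRCh38.p14 positions, while the array design names hg19, and no position was used to find the spots. The 3 seeds differed from each other, and 0 of the other names among the 2370 mature names of the RefSeq table had any of them. GC bases made up 52.2% of miR-191-5p and 63.6% of each 3p arm, beside a median of 54.5% over the 992 detected miRNAs with a RefSeq sequence (quartiles 45.5% and 63.6%).

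All 4 members were called detected by the scanner software, against 44.4% of all miRNAs on the array. The total gene signal, which the software sums over the probes of a miRNA, was 1073 ± 79.5 (error from the software) for miR-425-5p and 46.3 ± 3.37 for miR-191-5p. It was 7.04 ± 0.869 for miR-425-3p and 6.86 ± 0.603 for miR-191-3p. Both 5p arms thus lay above their 3p arms by far more than the errors. The 3p arms of the hairpins differed by less than their errors (0.04 ± 0.22 on the log2 scale). With both 3p arms near background, this small difference cannot tell whether their levels are alike. Among the 1133 detected miRNAs the signals ranked 60 for miR-425-5p, 305 for miR-191-5p, 729 for miR-425-3p and 742 for miR-191-3p. Probes bind with different strength, so these ranks order signals and not numbers of molecules.

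The 4 calls did not rest on equally many spots. A spot counts as well above background when the software finds its signal clearly over the local background. This was so for 20 of 20 spots of miR-425-5p, 17 of 20 of miR-191-3p, 13 of 20 of miR-425-3p and 10 of 20 of miR-191-5p. The brighter miR-191 arm therefore had fewer spots above background than the dimmer one. When it was enough that 1 probe had 50% or more of its spots above background, 37.9% of all miRNAs passed and so did all 4 members. When each probe of a miRNA had to reach that share, 29.4% of all miRNAs passed, and the members that passed were miR-425-5p and miR-191-3p. When the median spot had to exceed the 99th percentile of the 1000 negative control spots, 16.1, 31.0% of all miRNAs passed. Then miR-191-3p failed with a median of 15.9 and miR-425-3p passed narrowly with 16.5. The 3p arms thus lie at the edge of what this array can measure.

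miR-425-5p, the brightest member, was read by 2 probes of 10 spots each. Over the 10 spots of the probe A_25_P00010977, the lowest signal was 3750, the highest was 4036, and the mean without 1 outlier spot was 3843 ± 72.6 (SD, 9 spots). The spots of A_25_P00014045 ran from 1889 to 2157 with a mean of 2023 ± 91.2 (SD, 10 spots). All 20 spots were far above the negative controls, and the ranges of the probes did not overlap. The brighter probe gave 1.90 times the signal of the other, a log2 difference of 0.93 ± 0.02 (SE from replicate spots). The difference was 0.96 ± 0.02 over the upper rows of the array and 0.89 ± 0.03 over the lower rows, with the same probe brighter in each.

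miR-191-5p was read by 4 probes of 5 spots each, and these split into a bright pair and a dark pair. The probe A_25_P00012204 gave 291, 306, 306, 321 and 322, and A_25_P00012205 gave 180, 191, 198, 198 and 217. On A_25_P00012203 the spots read 2.72, 2.81, 2.81, 3.75 and 9.09, the last of them an outlier spot. On A_25_P00012202 every spot was below 0 after background subtraction, from -4.35 to -1.37. The bright pair had 10 of 10 spots well above background and the dark pair 0 of 10, with no overlap between them. The means of the bright pair were 309 ± 12.7 and 197 ± 13.6 (SD, 5 spots each), which differ by 0.65 ± 0.05 on the log2 scale. The mean of A_25_P00012203 was 3.02, above 91.5% of the negative control spots, and that of A_25_P00012202 was -2.92, above 2.30% of them. With the lowest spot signal that counted as well above background, 13.1, in place of the dark signals, the bright probes were at least 23.7-fold and at least 15.1-fold brighter than either dark probe. Why this pair is dark was not tested, and probe sequences were not used here.

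**Figure D1:**
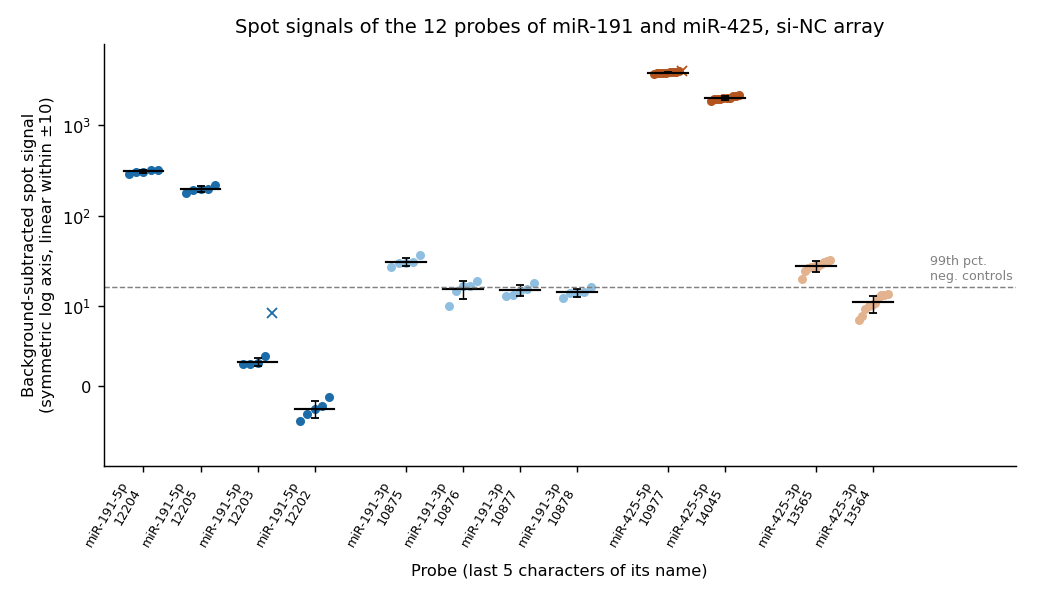
Background-subtracted signal of each of the 80 spots (points, crosses for outlier spots) by probe, on a symmetric log axis that is linear within 10 of 0, with the mean and SD over the spots without outliers (bars), and the 99th percentile of negative control spots, 16.1, as a dashed line. The spots of miR-425-5p start at 1889, whereas those of miR-191-5p start at 180 on 2 probes and end at 9.09 on the other two.

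The total of miR-191-5p depends in part on how the software sums the probes. For 1058 probes with a mean above 50, the total probe signal was the mean without outlier spots, times the number of spots, times a constant of 0.0183. Each miRNA has 20 spots in all, so a total gene signal is a mean over 20 spots on another scale, in which a probe under 3 times its error adds nothing. The dark probes had ratios of signal to error of 1.15 and -1.12, and the total of miR-191-5p was the sum of 28.3 and 18.0 from the bright pair. The mean per spot was 253 over the 10 counted spots and 127 when spread over all 20. Scaled to 20 counted spots, the total would be 92.6 and its rank 224 in place of 305. For that rank the totals of the other miRNAs were left unscaled, although some of them also had dark probes, so it favours miR-191-5p. All 20 spots were counted for each of the other 3 members, so their totals do not change.

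The arms of miR-191-3p and miR-425-3p, the passenger strands, were dim on every probe. miR-191-3p had 4 probes of 5 spots. The brightest, A_25_P00010875, gave 26.9, 30.0, 30.2, 30.8 and 36.3, and the means of the other 3 probes were 15.3 ± 3.33, 14.8 ± 2.13 and 14.1 ± 1.39 (SD, 5 spots each). Those 3 means lie within 1 SD of each other and below the 99th percentile of the negative controls, and the brightest probe stood apart from the dimmest by 1.13 ± 0.10 on the log2 scale. miR-425-3p had 2 probes of 10 spots. The spots of A_25_P00013565 ran from 19.6 to 32.0 with a mean of 27.5 ± 3.62 (SD, 10 spots) and all 10 were well above background. Those of A_25_P00013564 ran from 8.28 to 13.5 with a mean of 11.0 ± 1.93, and 3 of 10 were well above background. The spots of these probes did not overlap, and the mean of the dimmer probe was below the lowest spot signal that counted as well above background, 13.1, so no fold is given between them.

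The arm balance was then set beside that of other hairpins. On the log2 scale of total gene signals, the 5p arm of miR-425 exceeded the 3p arm by 7.25 ± 0.21 (error propagated from the software), or 152-fold, and the 5p arm of miR-191 by 2.75 ± 0.16, or 6.74-fold. The difference between the hairpins was 4.50 ± 0.27, and their 5p arms alone differed by 4.54 ± 0.15. These are ratios of signals from different probes and not ratios of molecules. Both 3p arms lay near background, which limits the size of these ratios beyond the errors given. The total of miR-425-3p includes A_25_P00013564, whose mean of 11.0 was below 13.1, the lowest spot signal that counted as well above background. Of 810 hairpins with both arms on the array, 232 had both detected (28.6%), both cluster hairpins among them. Another 163 had the 5p arm alone, 122 the 3p arm alone and 293 no arm detected. The 5p arm was the brighter one in 125 of the 232, and the size of the arm difference had a median of 2.50 (quartiles 1.24 and 4.49). That of miR-191 was larger than in 54.7% of these hairpins and that of miR-425 larger than in 89.7%, so miR-191 lay near the middle and miR-425 in the upper part of the range.

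**Figure D2:**
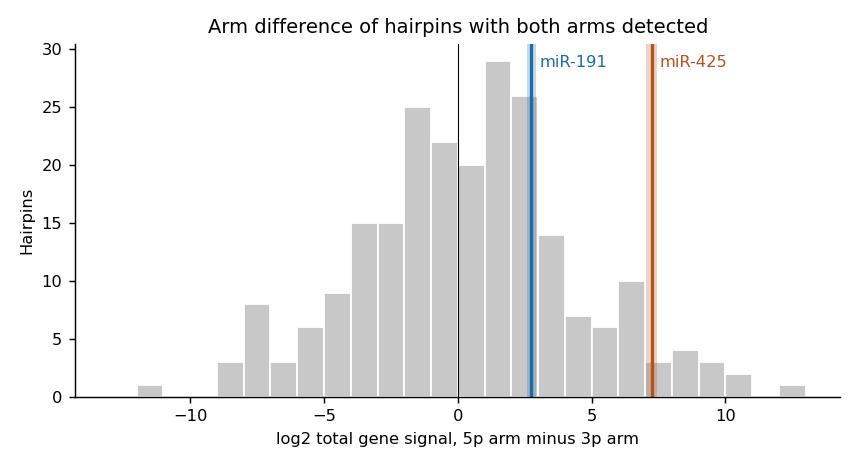
Histogram of the log2 total gene signal of the 5p arm minus the 3p arm over the 232 hairpins with both arms detected, with miR-191 at 2.75 and miR-425 at 7.25 as lines and their propagated errors as bands. Both lie on the side where the 5p arm is brighter.

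The value for miR-191 depends on its dark probes. With the mean per spot over probes for which 50% or more of the spots were above background, the arm difference was 3.75 for miR-191 and 6.74 for miR-425. With the brightest probe of each arm it was 3.33 and 7.14. The 5p arm stayed the brighter one and miR-425 the more uneven hairpin in each of these settings.

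The technical error was read from the replicate spots of each probe. Of the 12 member probes, 9 had 50% or more of their spots above background. Their coefficient of variation (CV) ran from 1.89% for A_25_P00010977 of miR-425-5p to 21.7% for A_25_P00010876 of miR-191-3p, with a median of 9.87%, beside 8.74% over the 1943 such probes of all detected miRNAs (quartiles 5.12% and 14.5%). On miR-425-5p and the bright pair of miR-191-5p the CV was at most 6.93%, and on the probes of the 3p arms it was at least 9.87%. A probe of miR-425-5p with a CV of 4.51% had a median CV of 3.91% among the 102 probes within 2-fold of its signal. For the 4 bright probes the ratio of signal to software error lay between 9.89 and 10.0, so that the software assigns them an error larger than the spread of their spots. No spot of the cluster was saturated, and 2 of the 80 were outlier spots.

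**Figure D3:**
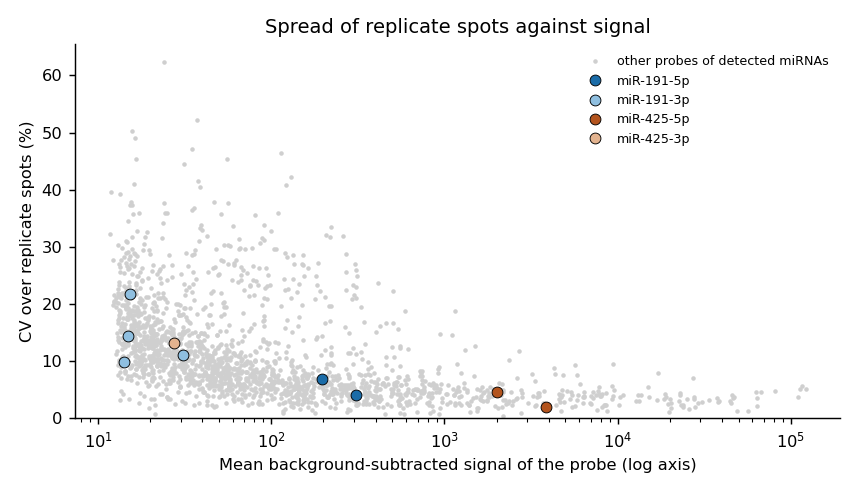
CV over replicate spots in percent against the mean background-subtracted signal of the probe (log axis), for 1943 probes of detected miRNAs (grey) and the 9 member probes that pass the filter on dim probes (coloured by arm). The CV falls with signal, and the member probes lie within the cloud, from 21.7% at a mean of 15.3 to 1.89% at a mean of 3843.

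Agreement between probes was read over the 801 detected miRNAs with 2 or more probes past the same filter on dim probes. Among these, 157 (19.6%) had a brightest and a dimmest probe 1 log2 unit or more apart, and the median difference was 0.35. Of the 3 members that could be compared, miR-191-3p passed that mark at 1.13, and miR-425-5p and the bright pair of miR-191-5p did not. miR-425-5p differed by more than 83.6% and miR-191-5p by more than 72.6% of the 683 miRNAs with 2 such probes, whose median was 0.32. miR-191-3p was near the median of 1.17 over the 57 miRNAs with 4 such probes. miR-425-3p had 1 such probe and is left out of these counts.

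**Figure D4:**
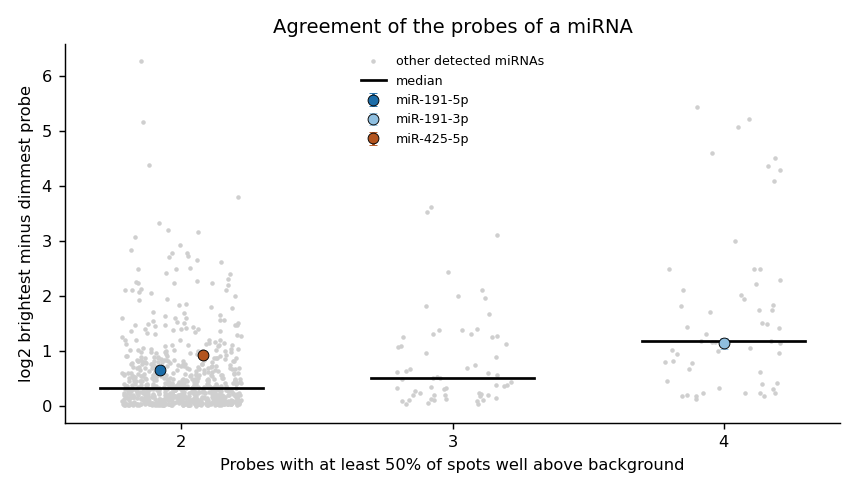
Log2 difference of the brightest and the dimmest probe of a miRNA, by the number of probes compared, for 801 detected miRNAs (grey), their median in each class (line) and the 3 comparable members with the SE from replicate spots. miR-425-5p and miR-191-5p lie above the median of the 2-probe class, and miR-191-3p lies close to that of the 4-probe class.

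This comparison leaves out the dark pair of miR-191-5p. A split with every spot of 1 probe well above background and no spot of another was seen in 94 of the 1133 detected miRNAs, or 8.30%. It was found in 54 of the 142 with 4 probes (38.03%) and in 34 of the 922 with 2 probes (3.69%). miR-191-5p was the 1 member of the cluster with such a split. Of the 142, 21 had 2 dark probes as miR-191-5p did, and their total gene signals ran from 2.71 to 52.0 with a median of 4.29. The signal of miR-191-5p was the highest but 1 among these 21. The split was defined after the values of miR-191-5p had been seen.

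Since the cluster is often treated as a reference, it was set beside 12 miRNAs that are common references in RT-qPCR. All 12 were called detected, against 44.4% of all miRNAs, and 11 had all 20 spots well above background, which of the members was true of miR-425-5p only. Every spot was well above background in 642 of the 1133 detected miRNAs. That was so for 560 of 922 with 2 probes and 46 of 142 with 4 probes. The 11 references have 2 probes each, whereas miR-423-3p and both miR-191 arms have 4. Their median signal was 1297, beside 12.5 over all detected miRNAs. The highest signals were 16584 ± 1173 for let-7a-5p, a tumour-suppressor family member that represses RAS genes, and 7451 ± 534 for miR-16-5p, which targets BCL2 and cyclins. miR-103a-3p and miR-107, a near-identical pair encoded in PANK genes, read 3399 ± 242 and 3364 ± 240. miR-24-3p, miR-25-3p, miR-93-5p and miR-30c-5p read 1657 ± 117, 1485 ± 106, 1109 ± 79.1 and 462 ± 33.8. The lower ones were miR-361-5p at 160 ± 11.4, miR-186-5p at 116 ± 8.48, miR-423-5p at 57.3 ± 4.41 and miR-423-3p at 12.6 ± 0.957. By total gene signal, miR-425-5p was next to miR-93-5p within the errors, and miR-191-5p lay below miR-423-5p and above miR-423-3p. The place of miR-191-5p depends on its dark probes. Scaled to 20 counted spots, its total of 92.6 would exceed that of miR-423-5p, which had all 20 spots well above background. miR-423-3p shares the pattern of miR-191-5p, with 4 probes, 2 of them dark, and 10 of 20 spots well above background.

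Other short miRNA clusters in introns of protein-coding genes were read the same way. In MCM7, a subunit of the replicative helicase, lie miR-106b, miR-93 and miR-25. SMC4, a condensin subunit, hosts miR-15b and miR-16, and NFYC, a subunit of the CCAAT-binding factor, hosts miR-30e and miR-30c. The arms miR-16-5p and miR-30c-5p can also come from hairpins outside these genes, so their signals cannot be assigned to these clusters alone. All 14 arms of these hairpins were called detected, like the 4 arms of the DALRD3 cluster, against 44.4% of all miRNAs. When 1 probe had to have 50% or more of its spots above background, 13 of the 14 passed, against 37.9% of all miRNAs. When the median spot had to exceed the negative controls, 10 passed, against 31.0%. When each probe had to reach 50%, 10 passed, against 29.4%. Of the 14, 9 had all 20 spots well above background, beside 642 of the 1133 detected miRNAs. The median signal of the 14 was 292. In MCM7, the 3 bright arms were miR-106b-5p at 2383 ± 169 and the miR-93-5p and miR-25-3p given above. Of their partners, miR-25-5p read 3.81 ± 0.455, miR-93-3p read 2.38 ± 0.337 and miR-106b-3p read 5.03 ± 0.537, below both 3p arms of the DALRD3 cluster. In SMC4, miR-15b-5p read 3162 ± 224, miR-15b-3p 74.4 ± 5.02 and miR-16-2-3p 84.2 ± 5.61. In NFYC, miR-30e-5p read 609 ± 43.7, miR-30e-3p 123 ± 8.999 and miR-30c-1-3p 1.08 ± 0.264. The arm difference was 8.89 ± 0.18 for miR-106b, 8.86 ± 0.23 for miR-93, 5.41 ± 0.14 for miR-15b and 2.31 ± 0.15 for miR-30e, and it was -8.61 ± 0.20 for miR-25, whose 3p arm is the guide. No arm difference was computed for miR-16 and miR-30c, whose arms carry different hairpin names. By total gene signal, miR-191 at 2.75 lay between miR-30e and miR-15b, and miR-425 between miR-15b and miR-93. The distance of miR-191 from miR-30e depends on its dark probes, since the mean per spot of probes above background gave 3.75.

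The labelled cell type was checked with marker miRNAs. All 5 epithelial and colon markers were called detected, from 319 ± 23.7 for miR-194-5p to 7625 ± 542 for miR-141-3p, and the 4 muscle and stroma markers miR-1-3p, miR-133a-3p, miR-143-3p and miR-145-5p were not, with 0 spots well above background. The 3 blood markers were called detected, at 695 ± 50.05 for miR-142-3p, 25.4 ± 1.97 for miR-223-3p and 21.5 ± 1.67 for miR-451a. Their part in the signal of the cluster was not tested.

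Last, the members were found in the table of log2 values that the authors normalized. miR-425-5p stood at 9.88, miR-191-5p at 5.63, miR-425-3p at 2.83 and miR-191-3p at 2.77, so the order of the 4 was that of the total gene signals. Relative to log2 of the total gene signal, the normalization moved miR-425-5p by -0.19, miR-191-5p by 0.094, miR-425-3p by 0.016 and miR-191-3p by -0.0052, beside a median of 0.080 over the detected miRNAs. Both 3p arms were within 1 log2 unit of the lowest value in the table, 2.32, so the table could show only a small fall of either arm.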

How the data were processed

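Total RNA of DLD-1 cells with negative control siRNA was hybridized to 1 single-colour array (n = 1). Per the labels, miRNA was labelled with Cyanine 3 by ligation, whereas the study's methods describe labelled cDNA. Per the file headers, Feature Extraction 11.0.1.1 gave the deposited background-subtracted intensity of each spot, total signals with errors, and flags of 0 or 1. The authors also deposited log2 values, quantile normalized in GeneSpring, whose floor was found from the values. Of its sample columns, 0 were left out.

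Outlier spots (4.51% of miRNA spots) were left out. CV and probe differences needed at least 50% of spots well above background. Relative signal was taken against the 75th percentile among spots whose miRNA was detected (143), over spots above 0. Errors on ratios were propagated. The 4 members were taken by name, and 2 lists of miRNAs and the cell type markers were chosen for comparison. From the list of host-gene clusters, 3p arms of hairpins outside SMC4 and NFYC were removed, while miR-16-5p and miR-30c-5p, which such hairpins share, were kept. Alternatives were other detection rules, percentiles, normexp (offset 50, on median spot signals), outlier spots kept, no dim-probe filter, deposited values, and rows up to or past 192 of 384. Members and lists were chosen with earlier results of these data known. Calculations were tested on simulated data for 5893 probes: a CV of 10.0% came back as 9.49% and a log2 difference of 2.00 as 2.00. All simulated spots counted as well above background and none was an outlier, so the handling of dim and outlier spots was not tested. Python 3.11.15, numpy 2.4.6, pandas 2.3.3, matplotlib 3.10.9, R 4.3.3 and limma 3.58.1 were used. The number of arrays limits the precision.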

Additional observations from a re-analysis of the deposited data

How the results depend on the processing

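For 17 results, 79 alternative values were computed, of which 37 stayed within their limits (1.5 times for a count, 1 SD or error for a value). Of 43 values of single members, 25 moved. With the rule on every probe the 4 detected members fell to 2, and hairpins with both arms detected fell from 232 to 117 with the negative control rule and to 94 with the rule on every probe. The median member signal relative to the 75th percentile, -2.03 on the log2 scale, became 0.41 when the percentile was taken over all miRNA spots, -1.60 with deposited values, -0.96 with normexp, -2.38 and -1.63 with spots of the upper and lower rows, and -0.80 with probes above background only, a setting chosen after the values were seen. In the first of these the reference is lower by construction. In the main setting miR-191-5p stood at -1.03 over 14 spots. All 5 spots of its dark probe A_25_P00012202 were below 0 and were left out, so this value does not include that probe. The arm difference of miR-191, 2.75, became 3.33 with the brightest probe and 2.06 with normexp on the brightest probe. With the mean per spot of probes above background it became 3.75. That of miR-425, 7.25, became 7.14 with the brightest probe and 5.52 with normexp on the brightest probe. It became 6.74 with the mean per spot, a setting chosen after the values were seen. Normexp adds its offset to every signal, which shrinks ratios with dim arms. The median probe difference, 0.93, became 1.23 with no filter, over 4 members in place of 3, and 0.54 with normexp. By member, normexp took miR-191-3p from 1.13 to 0.31, miR-191-5p from 0.65 to 0.54 and miR-425-5p from 0.93 to 0.90. The median of deposited minus scanner values, 0.0056, became -1.32 with mean log2 spot signals, which are on another scale. For the other shifts the cause was not tested. Among them, miR-191-5p stood at -1.96 with the upper rows and -0.10 with the lower rows. Its dark probe A_25_P00012203 had 3 spots without outliers in the upper rows and 1 in the lower rows. Both 3p arms are limited by signal over background. No paired analysis was possible because there is 1 array.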
